A study of Mus musculus with 4 samples.

Results

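The insulin-like growth factor (IGF) family was followed through dissociated mouse dorsal root ganglia (DRG) by single cell RNA-seq. The genes are the ligands Igf1 and Igf2, the receptors Igf1r and Igf2r, and the binding proteins Igfbp2, Igfbp3, Igfbp4, Igfbp5, Igfbp6 and Igfbp7. They were chosen by symbol, and all 10 were found among the 33456 genes listed. Whole ganglia of C57BL/6 mice aged 8 to 12 weeks were used, either uninjured (naïve, called control) or taken 3 days after sciatic nerve crush (injury). The study counted 2 biological replicates per condition, so there were 4 libraries of the whole ganglion, and its reporting summary states that each batch pooled cells of several mice. The labels name the L4 ganglion, whereas the methods of the study name L4 and L5.

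IGF1 and IGF2 are secreted peptides that signal through the receptor tyrosine kinase IGF1R, while IGF2R takes up IGF2 and sends it to lysosomes. The binding proteins hold IGFs outside the cell, where they can withhold, carry or release them. In peripheral nerve, IGF signaling is known for supporting the survival of sensory neurons and the growth of their axons.

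The libraries held 6975 cell barcodes, of which 6095 passed limits of 600 to 15000 unique molecular identifiers (UMIs, 1 per captured RNA molecule), 500 to 4000 genes and under 10% mitochondrial UMIs. UMIs in kept cells ranged from 4293865 to 9139674 per library, and the median per cell from 2775 in control replicate 1 to 4845 in injury replicate 2. A marker gate placed 5346 cells in 18 types and left 749 (12.3%) without a type. In each of the 18 types all measured markers of that type were detected, which was close to fixed in advance, since the cells were gated on them. Most marker lists were picked by the study from these same libraries. The mesenchymal list summed to 14000 CPM in mesenchymal-like cells and to 13290 CPM in adventitial fibroblast-like cells, so its sum hardly separates these types. Contrasts between them below compare gates that share those markers. No IGF family gene was a marker, but Igf2 and its noncoding neighbour H19 were left out of the lists taken from the study's top cluster genes. The genes beside them in those lists still set the gates. High levels of Igf2 and H19 in a gated type are therefore no independent support for a pattern. Satellite glial cell (SGC)-like cells made up 4.77% of control replicate 1 against 32.5% of control replicate 2 and 24.1% and 25.1% of the injury libraries, and each pair of libraries shared 1 to 6 barcodes.

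Levels below are CPM, the UMIs of a gene scaled to 1000000 UMIs summed over the cells of that type in that library, always in the order control replicates 1 and 2, then injury replicates 1 and 2. Only sums of at least 10 cells were used, which gave 54 sums of library and type. Confidence intervals and limits on counts of 0 cover counting error only. Since UMIs count 3′ ends, levels were compared between cells for 1 gene at a time and not between genes.

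Igf1 (ENSMUSG00000020053, chr10:87858265-87937042, plus strand, mm10) was found at its highest level in mesenchymal-like cells, the 351 cells gated on Mfap4, Slc47a1, Comp and other stromal genes. There it measured 1517, 1057, 1746 and 1468 CPM, a mean of 1447 ± 287 (SD, n = 4). These cells held 50.4% of all Igf1 UMIs of the kept cells. Adventitial fibroblast-like cells, gated on Pi16, Dpp4 and Cd248, held 203 CPM in control replicate 2 and 678 CPM in injury replicate 1, the libraries with at least 10 such cells. The mesenchymal level lay above both values in all 4 libraries, and the direct contrast was 1.74 ± 0.44 (log2 ± SE, adjusted p = 0.022, edgeR quasi-likelihood test with Benjamini-Hochberg adjustment).

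Connective tissue-like cells (Lum, Dcn and Apod) came after them with 274, 385, 197 and 236 Igf1 CPM, and held 20.4% of the UMIs. Macrophage-like cells, gated on complement and Csf1r genes, measured 214, 153, 122 and 198 CPM and held 17.8%. Adventitial fibroblast-like, connective tissue-like and macrophage-like cells thus overlapped, all of them below the mesenchymal level. An Igf1 UMI was seen in 69.8% of mesenchymal-like and 38.4% of macrophage-like cells, against 0.895% of SGC-like cells. The median depth of SGC-like cells was 4052 UMIs, close to the 4088 of macrophage-like cells. When each cell was thinned to 1000 UMIs, the shares were 46.2%, 14.7% and 0.281%. SGC-like cells held 0, 10.6, 0.895 and 4.11 CPM of Igf1, and endothelial-like cells 4.42 to 10.4 CPM. Smooth muscle-like and Schwann-like cells had no Igf1 UMI in any library, and among 223 smooth muscle-like cells that count of 0 still permits 1.35% with a UMI.

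Igf2 (ENSMUSG00000048583, chr7:142650766-142666816, minus strand), the fetal growth factor of an imprinted locus, was found mostly in mesenchymal-like cells. It measured 501, 1012, 762 and 551 CPM there (706 ± 233, SD, n = 4), and these cells held 87.0% of its UMIs. Adventitial fibroblast-like cells gave 135 and 57.7 CPM from 6 and 4 UMIs. All 4 mesenchymal values lay above both of these, and the contrast of the neighbours was 3.38 ± 0.54 (log2 ± SE, adjusted p = 4.9e-05, edgeR quasi-likelihood test with Benjamini-Hochberg adjustment). Connective tissue-like cells, the largest stromal group with 760 cells, stayed between 0.930 and 20.8 CPM. No Igf2 UMI was seen in B cell, T cell, Cd209a dendritic, Schwann, Scn7a glia, erythroid, monocyte, neutrophil or neuron-like cells. An Igf2 UMI was seen in 61.0% of mesenchymal-like cells, in 37.3% after thinning to 1000 UMIs, and in 0.821% of SGC-like cells. The microRNA gene Mir483 lies inside Igf2 on the same strand, so reads in the shared bases cannot be told apart. The annotation also places Gm49394, a protein-coding gene not used here, over Igf2 on that strand.

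**Figure D1:**
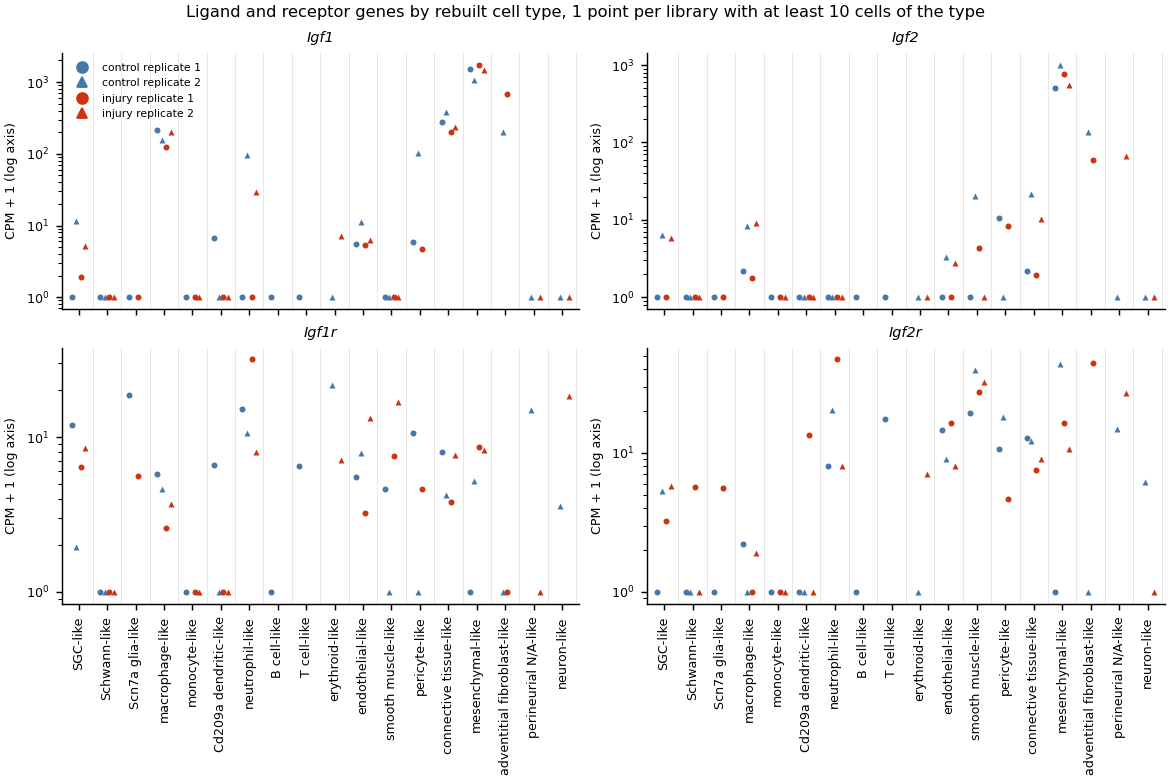
Levels of Igf1, Igf2, Igf1r and Igf2r (CPM + 1, log axis, so that a library with no UMI sits at 1) in each cell type, with 1 point per library of at least 10 cells, in blue for control and red for injury, as circles for replicate 1 and triangles for replicate 2. Igf1 and Igf2 reach 1447 and 706 CPM on average in mesenchymal-like cells, and the receptors stay under 50 CPM throughout.

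The receptors were thinly covered. Igf1r (ENSMUSG00000005533, chr7:67952827-68233668, plus strand) had 113 UMIs and Igf2r (ENSMUSG00000023830, chr17:12682406-12769664, minus strand) had 183 UMIs in all kept cells. The highest mean level of Igf1r, in neutrophil-like cells, rested on 1 or 2 UMIs per library (14.2, 9.64, 30.7 and 7.0 CPM). The next, in erythroid-like cells, rested on 1 UMI in each of control replicate 2 and injury replicate 2 (20.7 and 6.10 CPM). In SGC-like cells, which held 27 of the UMIs, Igf1r measured 10.9, 0.961, 5.37 and 7.54 CPM. Endothelial-like cells gave 4.52, 6.91, 2.21 and 12.3 CPM, and connective tissue-like cells 7.05, 3.20, 2.79 and 6.70 CPM. The ranges of these 3 types overlapped. Macrophage-like cells were lower than neutrophil-like cells in every library, at 1.58 to 4.79 CPM, and Schwann-like and monocyte-like cells had no Igf1r UMI. These counts of 0 still permit 1.19% of the 252 Schwann-like and 3% of the 100 monocyte-like cells with a UMI. Over all kept cells the share was 1.84%, so absence is not shown. A UMI was seen in 6.06% (95% exact binomial interval 2.26 to 12.7) of neutrophil-like and 1.18% (0.613 to 2.06) of macrophage-like cells of like depth. These intervals pool the cells of all libraries and leave out the spread between libraries. As neutrophil-like cells were picked for their high level, the intervals do not test a difference between the types.

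Igf2r measured 18.3, 38.6, 26.4 and 31.5 CPM in smooth muscle-like cells from 2 to 8 UMIs per library, and 0, 42.4, 15.3 and 9.71 CPM in mesenchymal-like cells. The next mean after smooth muscle-like cells, in adventitial fibroblast-like cells, came from 0 and 43.3 CPM. Macrophage-like cells had 1.2, 0, 0 and 0.904 CPM, and monocyte-like cells no UMI, which still permits 3% of them with one. The lowest smooth muscle value lay above every macrophage value, whereas smooth muscle-like and mesenchymal-like cells overlapped. In injury replicate 2 the 2 smooth muscle UMIs came from 6 cells of a small cluster led by Actg2, described below. The 7 other smooth muscle-like cells of that library had none, so the order there rested on this cluster. An Igf2r UMI was seen in 6.73% of smooth muscle-like cells and in 0.197% of macrophage-like cells, which were the deeper cells (medians of 3311 and 4088 UMIs). Both receptor genes fell below the filter on low counts of the fit across types, so no test is given. On the opposite strand of Igf2r lies the noncoding RNA gene Airn.

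Each binding protein had its own order of types. Igfbp2 (ENSMUSG00000039323, chr1:72824503-72852474, plus strand), a binding protein with an integrin binding motif, measured 81.1, 356, 345 and 376 CPM in mesenchymal-like cells (290 ± 139, SD, n = 4). These cells held 50.8% of Igfbp2 UMIs and cells without a type a further 32.5%. Control replicate 1 was low and the other libraries lay close together. The level in smooth muscle-like cells was 0, 212, 0 and 221 CPM, present in the replicate 2 libraries and absent in the replicate 1 libraries. Of the 36 UMIs there, 31 came from 9 cells of a small cluster led by Actg2, Cnn1 and Fst, of which 3 were in control replicate 2 and 6 in injury replicate 2. The next level after the mesenchymal one, 248 and 12.2 CPM in erythroid-like cells, rested on 14 UMIs in 2 cells, and the contrast with the mesenchymal level was 1.95 ± 0.71 (log2 ± SE, adjusted p = 0.034, edgeR quasi-likelihood test with Benjamini-Hochberg adjustment). Without injury replicate 2 it was 0.38 with an adjusted p of 0.857. Endothelial-like and neutrophil-like cells had no Igfbp2 UMI in any library.

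Igfbp3 (ENSMUSG00000020427, chr11:7206086-7213923, minus strand), the main IGF carrier of blood plasma, was highest on average in endothelial-like cells, at 118, 59.9, 44.2 and 33.3 CPM (63.7 ± 37.5, SD, n = 4). Mesenchymal-like cells held 57.2, 72.1, 38.3 and 46.1 CPM, within the endothelial range. The second highest mean, in smooth muscle-like cells, came from 13 UMIs in injury replicate 2 (205 CPM), all of them in the same Actg2 cluster, beside 0, 9.65 and 0 CPM in the other libraries. Endothelial-like and smooth muscle-like cells differed by 1.28 ± 0.64 (log2 ± SE, adjusted p = 0.136, edgeR quasi-likelihood test with Benjamini-Hochberg adjustment) with all libraries, and by 4.98 (adjusted p = 5e-05) without injury replicate 2. SGC-like cells measured 21.9, 45.2, 22.8 and 32.2 CPM and held the largest share of Igfbp3 UMIs, 35.3%. A UMI was seen in 10.5% of SGC-like cells and in 0.592% of macrophage-like cells of like depth. After thinning to 1000 UMIs the shares were 2.62% and 0.128%. Neutrophil-like cells had no Igfbp3 UMI.

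Igfbp4 (ENSMUSG00000017493, chr11:99041244-99054392, plus strand), which mostly holds IGFs back until the protease pappalysin cuts it, was spread over many types. Its mean over all kept cells was 534 CPM. The means of adventitial fibroblast-like, mesenchymal-like, connective tissue-like and smooth muscle-like cells lay above this. Those of SGC-like (491 CPM), perineurial N/A (459 CPM), pericyte-like (406 CPM), endothelial-like (311 CPM) and macrophage-like cells (303 CPM) lay below it. Adventitial fibroblast-like cells gave 2612 and 2194 CPM, and mesenchymal-like cells 949, 1767, 1129 and 1432 CPM. The adventitial values lay above all mesenchymal ones, but the contrast did not pass the test (0.65 ± 0.28, log2 ± SE, adjusted p = 0.41, edgeR quasi-likelihood test with Benjamini-Hochberg adjustment). The mesenchymal gate was mixed for this gene. Its cells in cluster 16 of the clustering given below measured 3292, 6712, 3382 and 3517 CPM, above both adventitial values. Its cells in cluster 6 measured 469 to 771 CPM. Connective tissue-like cells measured 537, 876, 713 and 796 CPM and smooth muscle-like cells 537, 868, 597 and 1576 CPM. The smooth muscle values of control replicate 2 and injury replicate 2 included 49 and 85 UMIs from 3 and 6 cells of the Actg2 cluster. The other smooth muscle-like cells measured 537, 467, 597 and 502 CPM, the last from 7 cells. SGC-like cells held 328, 669, 446 and 520 CPM, macrophage-like cells 262, 248, 270 and 431 CPM, and endothelial-like cells 287 to 346 CPM. All of these levels lay well above those of Schwann-like cells (4.61, 20.5, 9.37 and 16.3 CPM) and Cd209a dendritic-like cells, which held 1 UMI in all. Scn7a glia-like, neutrophil-like and monocyte-like cells were low as well, with means of 70.3, 56.1 and 27.4 CPM. An Igfbp4 UMI was seen in 72.2% of SGC-like cells but in 2.78% of Schwann-like cells, and after thinning to 1000 UMIs in 34.8% and 1.00%. The median depth was 4052 UMIs for SGC-like and 2079 UMIs for Schwann-like cells.

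Igfbp5 (ENSMUSG00000026185, chr1:72857932-72874884, minus strand), a binding protein found in extracellular matrix, ends 5457 bases from Igfbp2, tail to tail. It measured 7027 and 8256 CPM in adventitial fibroblast-like cells and 4579, 4427, 4085 and 3715 CPM in mesenchymal-like cells, which held 54.9% of its UMIs. These neighbours were not told apart by the test (0.56 ± 0.57, log2 ± SE, adjusted p = 0.858, edgeR quasi-likelihood test with Benjamini-Hochberg adjustment). A lower step followed in smooth muscle-like cells with 599, 453, 745 and 504 CPM and in pericyte-like cells with 260, 946 and 664 CPM, which overlapped. SGC-like cells had 43.8 to 125 CPM, and monocyte-like cells held 1 UMI in the 3 libraries with at least 10 of them.

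Igfbp6 (ENSMUSG00000023046, chr15:102144362-102149511, plus strand), which prefers IGF2 over IGF1, was highest in the 38 cells of a type gated on Kcnj13, Thbs4, Cldn1 and Krt19, which the marker table of the study leaves unnamed and which is called perineurial N/A here. The 2 libraries with at least 10 such cells, control replicate 2 and injury replicate 2, gave 12110 and 10060 CPM, and a UMI was seen in 100% of the 38 cells. Adventitial fibroblast-like cells gave 7612 and 7102 CPM, which differed from the former by 0.05 ± 0.71 (log2 ± SE, adjusted p = 1, edgeR quasi-likelihood test with Benjamini-Hochberg adjustment) in a fit that also weighs the libraries against each other. Mesenchymal-like cells measured 4736, 3919, 4808 and 4203 CPM and connective tissue-like cells 945, 956, 970 and 1001 CPM, so the connective tissue level lay below every mesenchymal value. Among glia, Schwann-like cells held 50.7, 267, 89.0 and 130 CPM and SGC-like cells 27.4, 16.3, 6.72 and 54.2 CPM. An Igfbp6 UMI was seen in 20.6% of Schwann-like and 3.73% of SGC-like cells, although SGC-like cells were the deeper ones. Scn7a glia-like cells had none in the 2 libraries with at least 10 of them, while 3 of the 8 such cells of injury replicate 2 held 61 UMIs.

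Igfbp7 (ENSMUSG00000036256, chr5:77349240-77408041, minus strand), a distant relative that binds IGFs weakly and marks vessels, was the vascular member. Endothelial-like cells measured 9095, 9079, 12080 and 9688 CPM (9985 ± 1424, SD, n = 4) and held 42.4% of its UMIs, and every one of the 435 cells had a UMI. Smooth muscle-like cells followed with 6881, 6279, 8397 and 6730 CPM and pericyte-like cells with 7248, 5041 and 8162 CPM. The endothelial values lay above both, but the contrast with smooth muscle-like cells did not pass the test (0.45 ± 0.33, log2 ± SE, adjusted p = 0.33, edgeR quasi-likelihood test with Benjamini-Hochberg adjustment). Mesenchymal-like, connective tissue-like, adventitial fibroblast-like and perineurial N/A cells ranged from 1039 to 4112 CPM. In glia the level split: Scn7a glia-like cells, gated on Scn7a, L1cam and Ngfr, held 864 and 678 CPM, SGC-like cells 27.4 to 76.8 CPM and Schwann-like cells 14.1 to 245 CPM. The lowest mean, 15.2 CPM, was that of Cd209a dendritic-like cells.

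**Figure D2:**
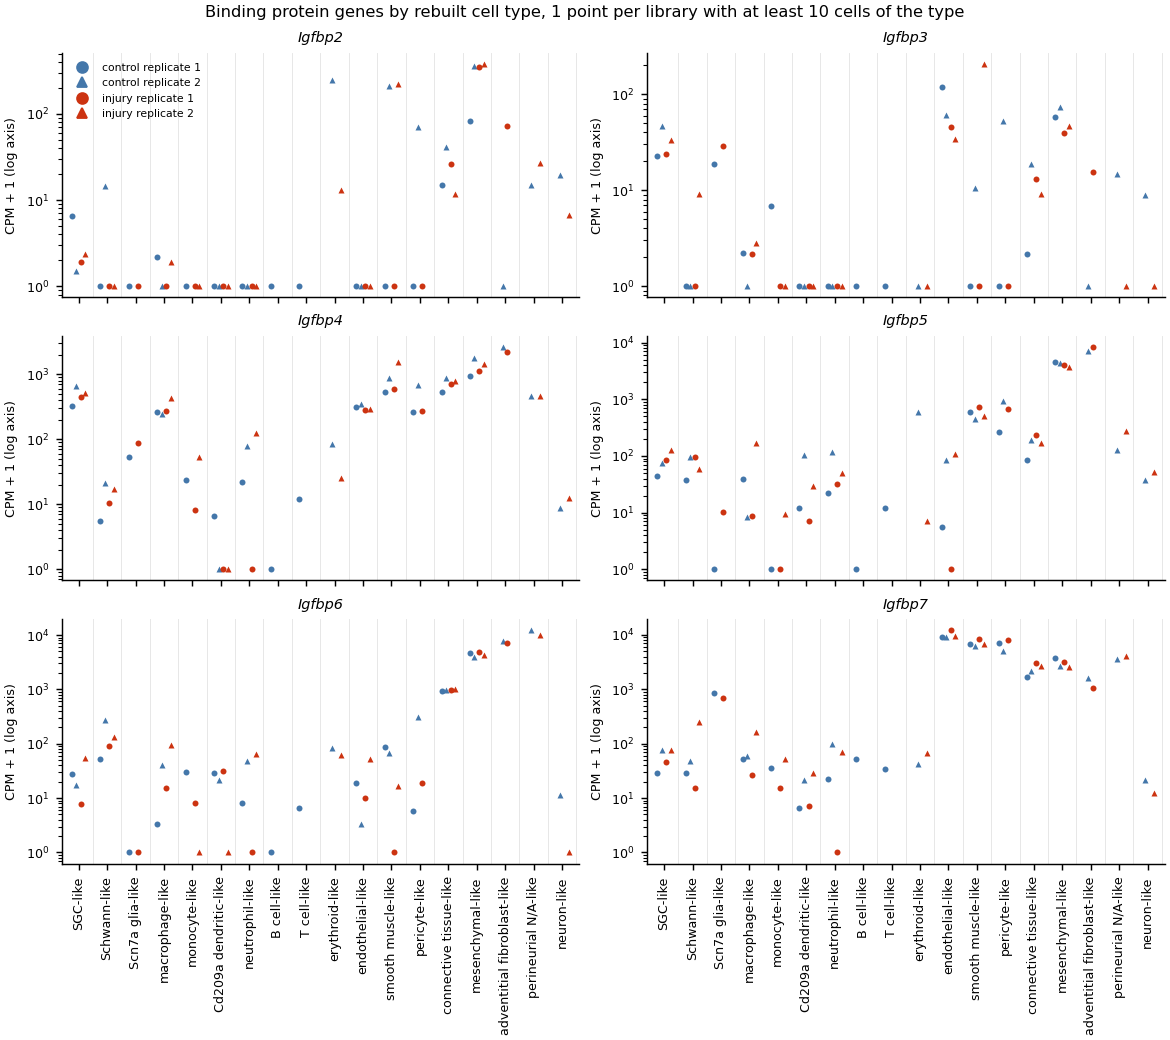
Levels of the binding proteins (CPM + 1, log axis) in each cell type, with 1 point per library of at least 10 cells, in blue for control and red for injury, as circles for replicate 1 and triangles for replicate 2. Igfbp7 is high in endothelial, smooth muscle and pericyte-like cells, Igfbp6 in perineurial N/A and stromal cells, and Igfbp4 reaches SGC-like and macrophage-like cells as well.

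Each type was then compared with the mean of the other types on the log scale in 1 edgeR quasi-likelihood fit over 9179 genes, with library as a block. A pair of gene and type was called at an adjusted p of at most 0.05 and a log2 fold of at least 2, the thresholds of the study. Of the 10 IGF family genes 8 passed the filter on low counts, and 37 of their 144 pairs were called higher. Over all genes 9.83% of pairs were called higher. The filter keeps a gene that is high in a single type, so these counts describe the genes and are no support for a pattern. A gene that is absent from several types also gets a large fold, since the mean of the others is then near the floor.

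In mesenchymal-like cells 8 of 8 tested genes were called higher, where 11.6% of all genes were. The log2 folds were 8.80 ± 0.28 for Igf2, 8.64 ± 0.29 for Igf1, 6.78 for Igfbp6, 6.58 ± 0.44 for Igfbp2, 6.10 ± 0.32 for Igfbp5, 4.02 ± 0.18 for Igfbp4, 3.94 for Igfbp3 and 3.59 for Igfbp7 (± SE where given). Adventitial fibroblast-like cells had 6 of 8 (6.55% of all genes), without Igfbp2 and Igfbp3. Their Igfbp7 fold was 2.16, but their Igfbp7 mean of 1330 CPM lay below the 1967 CPM of all kept cells. Connective tissue-like cells had 5 of 8 (13.2%), among them Igf1 with 6.27 ± 0.37 and Igfbp6 with 4.67 ± 0.36. Igfbp2 was called there too (2.94), at a mean of 22.5 CPM that lay below the 40.4 CPM of all kept cells. Smooth muscle-like cells also had 5 of 8 (11.6%), all of them binding proteins, but Igfbp2 and Igfbp3 rested on the 9 cells of the Actg2 cluster. The other 214 smooth muscle-like cells had no Igfbp3 UMI, and 5 Igfbp2 UMIs in control replicate 2 alone. Igfbp4 measured 467 to 597 CPM in these 214 cells, so the Actg2 cluster raised its level as well. Pericyte-like cells had 3 of 8 (11.6%), which were Igfbp4, Igfbp5 and Igfbp7. Their Igfbp4 fold was 2.03, and their Igfbp4 mean of 406 CPM did not lie above the 534 CPM of all kept cells.

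Outside the stroma the called genes were few. SGC-like cells had Igfbp4 (2.68 ± 0.21, adjusted p = 6.1e-17, edgeR quasi-likelihood test with Benjamini-Hochberg adjustment) and Igfbp3 (3.36 ± 0.57, adjusted p = 1.8e-06), 2 of 8 beside 12.9% of all genes. Macrophage-like cells had Igf1 (5.87 ± 0.40) and Igfbp4 (2.30 ± 0.22), 2 of 8 beside 12.3%. Over all kept cells the mean levels were 172 CPM for Igf1 and 534 CPM for Igfbp4. The macrophage means (172 and 303 CPM) and the SGC mean of Igfbp4 (491 CPM) did not lie above these. Endothelial-like cells had Igfbp7 (5.41 ± 0.21) and Igfbp3 (4.02 ± 0.57), 2 of 8 beside 11.7%, and perineurial N/A cells Igfbp6 (7.52 ± 0.41) and Igfbp7 (3.55), 2 of 8 beside 7.99%. Igf1 in neutrophil-like cells, 1 of 8 beside 8.85%, rested on 10 and 4 UMIs in the replicate 2 libraries and none in the others. Igfbp2 in erythroid-like cells, 1 of 8 beside 6.67%, rested on the 2 cells described above. None of the 8 was called higher in Schwann-like (10.4% of all genes), Scn7a glia-like (9.4%), monocyte-like (9.37%), Cd209a dendritic-like (8.77%), B cell-like (2.88%), T cell-like (7.08%) and neuron-like cells (14%). The 8 pairs called lower were all Igfbp7, with log2 folds from -2.03 in neutrophil-like to -4.75 in Cd209a dendritic-like cells, and SGC-like cells at -2.28. For several low levels of other genes this contrast gave no usable standard error. One was Igfbp4 in Schwann-like cells, with a mean of 12.7 CPM against 491 CPM in SGC-like cells. A missing lower call therefore does not show that a gene was not low in a type.

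All mesenchymal-like cells but 1 fell into clusters 6 and 16 of the 23 Leiden clusters, which had been computed without the IGF family and pathway genes. Cluster 6 held 274 of the 351 cells (78.1%) and was led by Col12a1, H19 and Mgp. Cluster 16 held 76 of them (21.7%) together with 34 of the 39 adventitial fibroblast-like cells, and was led by Clec3b, Inmt, Sfrp2 and Pi16. Igf2 itself was among the leading genes of cluster 6 and Igfbp4 among those of cluster 16. The levels of all 314 and 223 cells of these clusters, whatever their gate, are given first, as a description with no test.

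Igf2 measured 592, 1132, 813 and 636 CPM in cluster 6 against 190, 113, 52.5 and 120 CPM in cluster 16. Igf1 measured 1573, 1124, 1413 and 1406 CPM against 511, 524, 1133 and 695 CPM. Over all cells of the clusters both ligands were higher in cluster 6 in each of the 4 libraries. Igfbp2 ran the other way, with 0, 134, 132 and 17.3 CPM in cluster 6 against 322, 984, 520 and 841 CPM in cluster 16, which held 71.1% of all Igfbp2 UMIs. Igfbp4 also did, with 535, 775, 613 and 564 CPM against 3580, 5791, 3030 and 4087 CPM. The values of Igf2, Igfbp2 and Igfbp4 did not overlap between the clusters, while those of Igf1 did. Igfbp5 (4739, 4784, 4155 and 4990 CPM against 4347, 2368, 5081 and 1963 CPM), Igfbp6 and Igfbp3 overlapped between the clusters. Igfbp7 was higher in cluster 6 in every library, by less, at 3728, 2732, 3118 and 2836 CPM against 2194, 1768, 2287 and 2352 CPM.

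Among the mesenchymal-like cells alone, of which cluster 16 held 8, 29, 12 and 27 in the 4 libraries, some of this changed. Igf2 (582 to 1183 CPM in cluster 6 against 32.3 to 161 CPM in cluster 16), Igfbp2 (0 to 146 against 549 to 1400 CPM) and Igfbp4 (469 to 771 against 3292 to 6712 CPM) again did not overlap. Igf1 was lower in cluster 6 in injury replicate 1 (1605 against 2341 CPM) and higher there in the other libraries. Igfbp5 (4483 to 4930 against 1134 to 2711 CPM) and Igfbp6 (4413 to 5306 against 1467 to 3356 CPM) no longer overlapped and were higher in cluster 6, and Igfbp7 was lower there in control replicate 1 (3660 against 4389 CPM). The share of mesenchymal-like cells in cluster 16 was 18.2%, 18.0%, 20.0% and 31.4%.

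**Figure D3:**
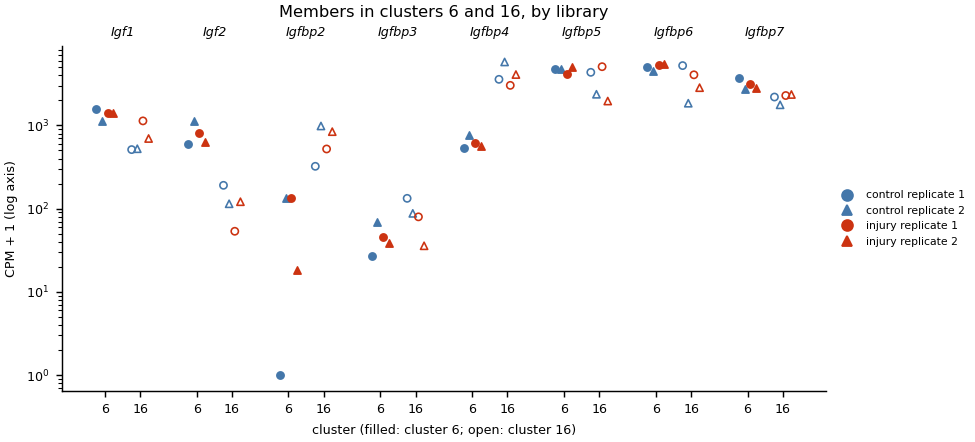
Levels (CPM + 1, log axis) of the ligands and binding proteins in cluster 6 (filled) and cluster 16 (open), with 1 point per library, in blue for control and red for injury, over all cells of the clusters. Igf1 and Igf2 lie higher in cluster 6, and Igfbp2 and Igfbp4 higher in cluster 16, in each of the 4 libraries, an order that Igf1 did not keep in injury replicate 1 among mesenchymal-like cells alone.

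Macrophage-like cells were divided by the resident macrophage genes Cd163 and Mrc1, with at least 1 UMI of either or none. Igf1 measured 273, 214, 159 and 225 CPM in cells with a UMI against 99.1, 69.5, 54.1 and 47.8 CPM in cells without. Igfbp4 measured 300, 308, 339 and 470 CPM against 188, 165, 147 and 215 CPM. Neither gene overlapped between the subsets. The log2 difference was 1.56 ± 0.17 for Igf1 (adjusted p = 2e-06, edgeR quasi-likelihood test with Benjamini-Hochberg adjustment and library as a block) and 0.94 ± 0.14 for Igfbp4 (adjusted p = 0.00012), and Igfbp7 did not pass the test (0.61 ± 0.37, adjusted p = 0.411). These were 2 of the 3 family genes tested at the adjusted p alone, where 8.01% of 4232 genes passed, and none of the 3 reached the log2 fold of 2. An Igf1 UMI was seen in 44.9%, 37.8%, 43.2% and 58.6% of cells with Cd163 or Mrc1 and in 21.9%, 23.3%, 18.0% and 18.2% of cells without. The cells with Cd163 or Mrc1 were not uniformly deeper, with median UMIs of 2744, 3133, 4728 and 5034 against 3686, 3397, 4700 and 4637.

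**Figure D4:**
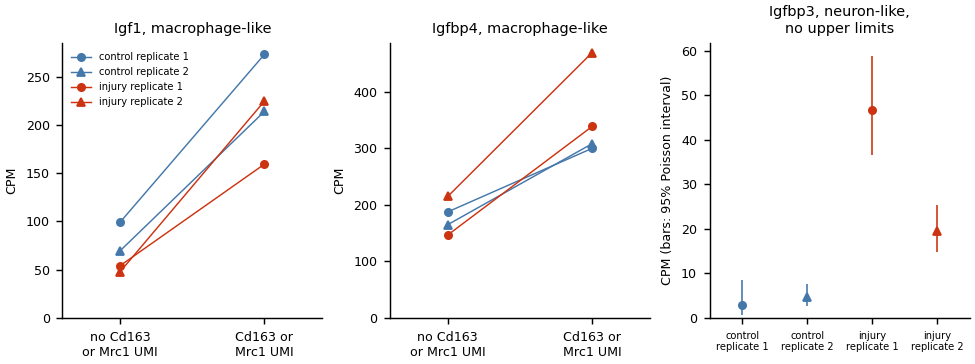
Left and middle, Igf1 and Igfbp4 levels (CPM) in macrophage-like cells with and without a Cd163 or Mrc1 UMI, with a line joining the values of each library. Right, Igfbp3 level (CPM) in neuron-like barcodes without upper limits on depth, 1 point per library with its 95% Poisson interval, where the injury libraries measured 46.6 and 19.5 and the control libraries 2.94 and 4.70.

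The injury comparison asks what crush of the sciatic nerve changes in the ganglion after 3 days. It was fitted with edgeR in the 9 types with at least 10 cells in each library. In 7 of these types 9 IGF family genes gave 36 tested pairs, and none was called, against 0.0167% of all pairs of gene and type. The calls over all genes all lay in connective tissue-like cells (7 of 7093 genes). In the other types no gene was called, so the lack of a family call there says little. DESeq2 also called none of the 36 pairs. At an unadjusted p below 0.05 there were 3 of 36 pairs, where 3.03% of all pairs were. The folds of the 36 pairs lay above 0 in 20 and had a median of 0.10 (log2).

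The ligands in mesenchymal-like cells differed by 0.34 ± 0.26 for Igf1 and -0.23 ± 0.36 for Igf2 (log2, injury minus control, ± SE), and the control values of both genes (above) overlapped the injury ones. Igf1 differed by -0.53 ± 0.23 in connective tissue-like cells, where both injury libraries lay below both controls, and by -0.40 ± 0.31 in macrophage-like cells, where they overlapped. In mesenchymal-like cells the differences were 0.62 ± 0.53 for Igfbp2, -0.09 ± 0.33 for Igfbp4, -0.19 ± 0.25 for Igfbp5 and 0.07 ± 0.26 for Igfbp6. Igfbp7 in endothelial-like cells differed by 0.35 ± 0.38, and Igf1r in SGC-like cells by 1.67 ± 0.98 on 27 UMIs. The mean Igf1r level in SGC-like cells was 5.95 CPM in control and 6.46 CPM in injury. Control replicate 1, with 10.9 CPM, lay above both injury libraries. For each of the differences in this paragraph the adjusted p was 0.81 or more (edgeR quasi-likelihood test with Benjamini-Hochberg adjustment).

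The 3 pairs with an unadjusted p below 0.05 were Igfbp3 in endothelial-like, Igfbp7 in connective tissue-like and Igfbp6 in smooth muscle-like cells. Igfbp3, with 118 and 59.9 CPM in control and 44.2 and 33.3 CPM in injury, differed by -0.99 ± 0.41 (log2 ± SE, adjusted p = 0.9997, edgeR quasi-likelihood test with Benjamini-Hochberg adjustment). Both injury libraries lay below both controls. Igfbp7, with 1703 and 2151 CPM in control and 3075 and 2673 CPM in injury, differed by 0.66 ± 0.26 (adjusted p = 0.981), and both injury libraries lay above. Igfbp6, with 87.6 and 67.5 CPM in control and 0 and 15.8 CPM in injury, from 24, 7, 0 and 1 UMIs, differed by -4.44 ± 1.24 (adjusted p = 0.9999). The conditions did not overlap, but all 32 UMIs came from 5 of the 223 cells, so the value rests on single cells. With the replicate number as a block it was called (-4.53, adjusted p = 0.00283, edgeR), where 0.283% of all pairs were, although the pairing of libraries is not established.

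**Figure D5:**
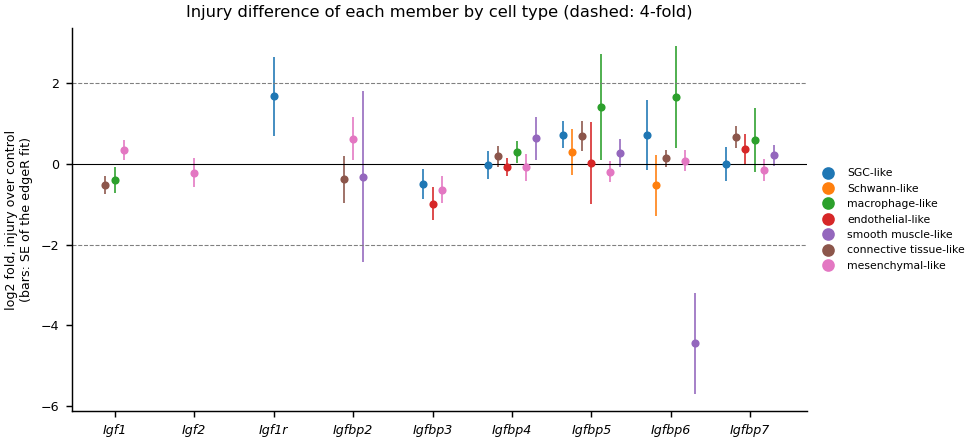
Injury minus control log2 fold of each tested pair of IGF family gene and cell type, colored by type, with bars of 1 SE and dashed lines at the log2 fold threshold of 2 in each direction. Of the 36 pairs 20 lie above 0, and none passed the test after adjustment.

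The limits of 15000 UMIs and 4000 genes removed most neuron-like barcodes, of which 72 lay within them and 305 without them. In the 305, whose median was 21660 UMIs, Igf1r measured 8.82, 10.2, 3.88 and 7.44 CPM and Igf2r 11.8, 10.2, 11 and 7.80 CPM, within the ranges of other types. As these barcodes are large, they held 73 Igf1r UMIs, 40.3% of the total counted without upper limits, and 20.7% of them had a UMI, or 0.962% after thinning to 1000 UMIs.

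Igfbp3 was the family gene that differed most there between conditions, with 2.94 and 4.70 CPM in control and 46.6 and 19.5 CPM in injury, from 3, 17, 72 and 55 UMIs. Both injury libraries lay above both controls. Their counting intervals did not meet those of the controls, but these intervals cover neither the spread between cells nor that between libraries. The 72 and 55 injury UMIs sat in 16 of 35 and 19 of 79 barcodes. The log2 difference was 3.12 ± 0.58 with an adjusted p of 0.219 (edgeR quasi-likelihood test with Benjamini-Hochberg adjustment), so it was not called. In these barcodes edgeR called 0% of 10358 genes and 9.94% had an unadjusted p below 0.05, whereas DESeq2 called 0.869%, Igfbp3 among them. Igfbp2 ran the other way, with 23.5 and 23.0 CPM in control and 13.6 and 9.92 CPM in injury (-0.86 ± 0.34, adjusted p = 0.484, edgeR).

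Whether the injury difference varied between types was tested for 8 of the genes by an interaction term, and none was called (adjusted p of 1 for each, edgeR), where 0.031% of 6456 genes were. Over whole libraries all 10 genes were tested and none was called by edgeR or by DESeq2, as was none of 13165 genes by edgeR (0%), of which 181 had an unadjusted p below 0.05. Igf2 had the widest difference, -1.02 ± 0.69, with 32.6 and 127 CPM in control and 24.4 and 49.2 CPM in injury. The share of mesenchymal-like cells was 3.38% and 12.0% in control and 2.52% and 7.99% in injury, the same order of libraries. In such sums fewer cells of a type and less RNA per cell cannot be told apart.

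Of 47 other genes of the pathway, all of which were listed, 28 were tested across types and 18 were called higher in at least 1 type. By pairs of gene and type 60 of 504 were called higher, beside 9.83% of the pairs of all genes. The share of all genes called higher in at least 1 type was not computed. The counts by gene here and in the next paragraph therefore only describe the list. Among relatives and proteases of the binding proteins, 4 of 9 genes were tested and all 4 called. Htra3, a secreted serine protease, had 1486 and 621 CPM in adventitial fibroblast-like cells (log2 fold 7.86) and 329, 383, 390 and 408 CPM in mesenchymal-like cells (6.58). Of the 8 genes grouped as imprinted or as binding Igf2 mRNA, which do not all lie at the Igf2 locus, 6 were tested and 5 called. H19, the noncoding neighbour of Igf2 that is expressed from the other parental allele, measured 1517, 2172, 1443 and 1888 CPM in mesenchymal-like cells (log2 fold 8.48) and 1396 and 245 CPM in adventitial fibroblast-like cells (6.90), the types that also led for Igf2. Dlk1, another imprinted growth regulator, had its highest fold in connective tissue-like cells instead (7.90).

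Of 19 relay genes from PI3K to FOXO, 12 were tested and 4 called higher in a type, and of 6 receptor adaptors 4 were tested and 3 called, among them Grb10 and Grb14. Of the 5 genes of the insulin branch, 2 were tested and both called, the insulin receptor Insr in endothelial-like cells (4.13) and the growth hormone receptor Ghr in mesenchymal-like cells (6.17) and other types. For injury, 34 pathway genes gave 127 pairs, none was called by edgeR (0.0167% of all pairs), and 4 had an unadjusted p below 0.05 (3.03% of all pairs). One of them was Dlk1 in connective tissue-like cells, with 441 and 193 CPM in control and 55.8 and 53.6 CPM in injury (-2.47 ± 0.40, adjusted p = 0.166, edgeR quasi-likelihood test with Benjamini-Hochberg adjustment). It was the 1 pathway pair that DESeq2 called, beside 0.0548% of all pairs.

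The genes whose levels over the 54 sums ran most like those of a family gene are given by Pearson's r of log2(CPM + 1) as a description, since sums of 1 library share its depth and its free RNA. Igf1 ran most like Tmem119 (0.81) and Esr1 (0.809), and Igf2 like Slc47a1 (0.91), which is a marker of the mesenchymal gate, and Krtdap (0.859). Among the binding proteins the nearest genes were Scara3 for Igfbp2 (0.773), Dkk3 for Igfbp3 (0.721), Bgn for Igfbp4 (0.883), Tmem100 for Igfbp5 (0.843), Itgbl1 for Igfbp6 (0.855) and Tm4sf1 for Igfbp7 (0.902). The receptors reached 0.573 (Igf1r with Cpeb4) and 0.698 (Igf2r with Lrrc32) on their few counts. Within the family the highest values were 0.749 for Igfbp4 with Igfbp7, 0.697 for Igf1 with Igf2 and 0.696 for Igf2 with Igfbp5.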

How the data were processed

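Per the labels, whole DRG were dissociated with papain and collagenase, sorted for live cells and captured on the 10x Chromium system with 3′ chemistry. The authors deposited raw UMI counts per gene and barcode, 1 matrix per library; the submitters' processing notes name Cell Ranger, Partek and mm10. In the labels a 2 marks 1 control and 1 injury library; the unnumbered libraries are called replicate 1 here.

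The cell limits take the numbers of the study, whose total reads per cell were read here as UMIs. The study kept more cells than the 6095 kept here, so its limits may not have left out the same barcodes. Cells were gated by marker lists, most of them taken from the study's table of cluster genes, by a score of capped marker levels with a lead over the next type; a gate needed at least 3 markers. The scoring was set after the data were seen, and the family genes and gene lists were chosen with earlier results of these data known. Cells were also clustered with scanpy 1.11.5 (Leiden, 30 principal components), and 95.1% of 5327 cells with both names had the same type. Doublet calls by Scrublet (37 barcodes, 0.53%) were left in except in 1 alternative, so doublets may remain.

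UMIs were summed per library and type and fitted with edgeR 4.0.16 in R 4.3.3 (filterByExpr, TMM, quasi-likelihood F test), with Benjamini-Hochberg adjustment over all genes; the standard error is the fold divided by the square root of F. DESeq2 1.42.0 was an alternative, as were no filter, other cell limits, thinning, clusters as types, a stricter gate, each library left out and the replicate number as a block. The scripts were tested on simulated data. All 10 family genes are named, in their highest, next and lowest types by mean level; the order leaves out B cell-like and T cell-like cells, which reached 10 cells in only 1 library each. Pathway genes are named where called after injury or among the 5 highest folds across types; Dlk1, Insr, Ghr, Grb10 and Grb14 were named after their values were seen. The contrasts of the highest type with the next, the Igfbp3 fits in neuron-like barcodes and the comparison of clusters 6 and 16 were also chosen after the values were seen. Positions come from GENCODE vM21 (GRCm38), matched by gene identifier. Same-numbered libraries deviated together (r = 0.45 over whole libraries, 0.203 to 0.601 within types), but 2 pairs do not establish a pairing, so it was kept as an alternative.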

Additional observations from a re-analysis of the deposited data

Results flagged for a closer look

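Igfbp3 in neuron-like barcodes is singled out because it appears in barcodes that the upper limits of the study, as applied here to UMIs, leave out. Within those limits it had 4 UMIs in 72 cells, at 7.83 CPM in control replicate 2 and 0 CPM in injury replicate 2. Without upper limits it differed by 3.12 ± 0.58 (log2, injury minus control, ± SE, adjusted p = 0.219, edgeR quasi-likelihood test with Benjamini-Hochberg adjustment), with a UMI in 8.00% and 9.64% of control and 45.7% and 24.1% of injury barcodes. The DESeq2 Wald test gave 3.21 (adjusted p = 0.00244) in a fit that called 0.869% of 10358 genes. With the replicate block edgeR gave 2.82 (adjusted p = 0.143). With no filter on low counts edgeR gave 3.10 and passed the test. The share of all genes passing in that fit is not given, so the pass cannot be weighed. With 1 library left out the fold ranged from 2.33 to 3.69, which is given as a fold only, since a condition then has a single library.

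The neuron markers summed to 15740, 16020, 23160 and 18030 CPM in these barcodes. Markers of SGC and endothelial cells, types that also hold Igfbp3, were present too: the 10 SGC markers summed to 187 and 617 CPM in control and 236 and 469 CPM in injury, with 5, 10, 9 and 10 of them detected, and the 12 endothelial markers to 42.2, 80.8, 58.3 and 82.6 CPM. The ranges of both lists overlapped between conditions, and their part in the result was not tested. Median depth was 32510 and 18520 UMIs in control and 31990 and 28070 UMIs in injury, and Scrublet marked none of these barcodes.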

How the results depend on the processing

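The counts of calls depended mostly on single libraries. Of 36 pairs of family gene and type, 0 were called for injury, and 1 was called with no filter on low counts and with the replicate block, in both settings Igfbp6 in smooth muscle-like cells (-4.53, adjusted p = 0.00283, edgeR, with the block). With 1 library left out 1 to 4 pairs were called, most without control replicate 2, where calls over all genes rose from 7 to 351 pairs; leaving out a library leaves its condition with 1 sample, which is assumed to vary like the other pair. The rises without control replicate 2 were Igfbp2 in mesenchymal-like (2.19), Igfbp6 in macrophage-like (4.14) and Igfbp5 in endothelial-like cells (3.61). The others were Igfbp6 in endothelial-like cells (3.72) without control replicate 1 and Igfbp7 in Schwann-like cells (2.74) without injury replicate 1. All falls lay in smooth muscle-like cells. They were Igfbp6 (-4.62) without control replicate 2, and Igfbp2 (-7.26) and Igfbp6 (-7.17) without injury replicate 2. Calls over all genes rose as well, from 7 pairs (0.0167%) in the main fit to 119 (0.283%) with the block. They were 177 (0.149%) with no filter and 23 (0.0548%) with DESeq2. The interaction term called 1 family gene with no filter, Igfbp6, and the share of all genes it called in that setting is not given. The pathway genes gave 1 injury call (0 in the main fit) with DESeq2, with no filter and with the block, and 0 to 1 with a library left out, Dlk1 in connective tissue-like cells in each case.

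Injury folds that changed sign were small or thinly counted. Without control replicate 2 these were Igf2 (0.42), Igfbp4 (0.47) and Igfbp6 (-0.03) in mesenchymal-like cells and Igf1r in SGC-like cells (-0.61). Without injury replicate 1 they were Igfbp4 (0.05) and Igfbp6 (-0.045) in mesenchymal-like cells, and with a stricter gate Igfbp2 there (-0.50). At the other end, without control replicate 1, Igfbp4 was -0.47, Igfbp6 0.20 and Igf1r 2.65. The Igfbp6 contrast of perineurial N/A with adventitial fibroblast-like cells was -0.12 without upper limits, -0.018 without a mitochondrial limit, -0.16 with DESeq2 and from -0.63 (without control replicate 2) to 0.50 with a library left out. The cause was not tested in any of these.

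The calls across types were steadier: 34 to 39 pairs were called higher with a library left out and 31 to 45 over all alternatives, against 37, and 46 to 66 pathway pairs with a library left out, against 60. The highest-type folds kept their direction and their side of the threshold in 92 of 92 alternatives and the macrophage folds in 24 of 24. The highest types were picked by their levels in these same data, so the 92 of 92 is no separate support. The Igf1 contrast of mesenchymal with adventitial fibroblast-like cells no longer passed without upper limits (adjusted p = 0.0731), with other size factors (0.0765), with DESeq2 (0.875, which also lost Igf2) or without control replicate 2 (0.328). Shares of cells with a UMI moved with thinning in 17 of 20 alternatives. The Igfbp3 contrast of endothelial-like with smooth muscle-like cells was 7.66 with clusters as types and 6.97 with a stricter gate, both past the test. With 2 libraries per condition and few UMIs, the receptors were tested for injury only in SGC-like cells (Igf1r) and over whole libraries. The block changed no other call of a family or pathway gene.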
